A study of Mus musculus with 6 samples.

Results

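The genes described here encode the receptor chains of the NKG2 and CD94 family: Klrd1 (CD94), Klrc1 (NKG2A), Klrc2 (NKG2C), Klrk1 (NKG2D) and Klre1 (NKG2I). They were chosen by name as the listed receptor genes and not by a rule on a measured value, but with earlier results of these data known. They are 5 of the 34187 gene features in the matrices. Their UMIs, the counts of distinct captured RNA molecules, were followed across the 12 annotated cell clusters and across treatments. All 5 were detected: among the 2084 annotated T and NK cells, at least 1 UMI was found for Klrd1 in 1409 cells, for Klrc1 in 890, for Klrc2 in 444, for Klrk1 in 862 and for Klre1 in 868.

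CD94 forms a heterodimer at the cell surface with an NKG2 chain, and the mouse complexes recognize the nonclassical class I molecule Qa-1 (H2-T23). With NKG2A the pair is inhibitory and recruits phosphatases through motifs in the NKG2A tail, whereas with NKG2C it is activating and needs the adaptor DAP12 (Tyrobp). NKG2D is a homodimer that couples to DAP10 (Hcst) or, in mice, also to DAP12, and it binds stress-induced ligands of the Raet1, Ulbp1 and H60 families, while NKG2I is a surface receptor of NK cells that lies in the same gene complex.

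Male and female C57BL/6 mice carried subcutaneous tumors of 6694c2vTRP1, a line from the KPC model of pancreatic ductal adenocarcinoma. Every group received the tumor cells and 2 intraperitoneal injections that began on day 8, and the tumors were collected on day 14. The groups were PBS, mono-IL10 (a monomeric IL-10, 26 µg per mouse) and IL10/2-Trikine (an IL-10 molecule extended to engage the IL-2 receptor as well, 30.6 µg per mouse). Beads were used to enrich leukocytes by CD45, a hashtag antibody marked each of the 5 mice of a treatment, and 1 library per treatment was made with the 10x Genomics GEM-X 5' single-cell method. The tumor is a transplanted line grown under the skin rather than in the pancreas, and neither the sex nor the age of a single mouse is given in the labels.

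Each treatment was sequenced as 1 library, so treatment and library cannot be told apart in any comparison. The IL10/2-Trikine library held 725 annotated cells, the mono-IL10 library 843 and the PBS library 516, with medians of 2635, 3959 and 2780 UMIs per cell. Of these, 400, 635 and 348 carried a mouse and entered the comparisons. A single mouse contributed 46 to 134 cells under IL10/2-Trikine, 35 to 215 under mono-IL10 and 41 to 112 under PBS. No annotated barcode was shared between libraries. Levels are given as CPM, the UMIs of a gene per 1000000 UMIs of the summed cells, and are compared between cells or treatments for 1 gene at a time, since 5' UMIs are not scaled for transcript length.

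The 5 genes lie side by side on mouse chromosome 6, in the order Klre1, Klrd1, Klrk1, Klrc3, Klrc2 and Klrc1, with Gabarapl1 and the pseudogene Gm7309 on either side. The 250 bases before the annotated start of 4 of them are shown because the 5 neighboring genes differed in the clusters where their levels were highest, and because Klrc2 and its neighbor Klrc3 are almost the same there. The reference used held no such window for Klrd1, which is therefore left out. Sequences are from RefSeq on GRCm38.p6, an older build than the GRCm39 used for counting, and read 5′ to 3′ on the gene's strand. Capitals mark each match to TGTGGT, the core that RUNX factors bind, on either strand. The windows are chr6:129577963-129578212 (plus strand) for the first start of Klre1, chr6:129623865-129624114 (minus strand) for Klrk1, chr6:129660557-129660806 (minus strand) for Klrc2 and chr6:129678974-129679223 (minus strand) for Klrc1.
Klre1: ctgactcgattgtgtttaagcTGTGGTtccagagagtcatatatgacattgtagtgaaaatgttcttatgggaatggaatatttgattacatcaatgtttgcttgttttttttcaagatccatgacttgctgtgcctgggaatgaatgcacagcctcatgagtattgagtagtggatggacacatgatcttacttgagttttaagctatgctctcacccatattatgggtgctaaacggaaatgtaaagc
Klrk1: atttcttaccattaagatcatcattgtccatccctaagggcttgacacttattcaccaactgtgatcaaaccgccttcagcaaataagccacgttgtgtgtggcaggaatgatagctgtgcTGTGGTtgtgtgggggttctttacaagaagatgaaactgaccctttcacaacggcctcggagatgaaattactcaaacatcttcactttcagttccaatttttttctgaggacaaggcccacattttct
Klrc2: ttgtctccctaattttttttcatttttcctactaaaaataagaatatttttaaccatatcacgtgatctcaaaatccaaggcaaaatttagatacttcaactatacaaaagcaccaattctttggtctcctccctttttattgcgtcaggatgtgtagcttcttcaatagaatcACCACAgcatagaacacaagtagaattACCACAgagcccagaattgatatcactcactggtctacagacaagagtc
Klrc1: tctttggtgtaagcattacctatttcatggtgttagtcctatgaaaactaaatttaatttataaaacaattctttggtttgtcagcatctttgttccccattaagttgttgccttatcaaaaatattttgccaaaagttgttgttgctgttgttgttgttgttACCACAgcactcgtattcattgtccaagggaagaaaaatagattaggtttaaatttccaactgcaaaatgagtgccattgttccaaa
Each of the 4 windows shown held at least 1 match to TGTGGT, which was present in 14.0% of the 32851 windows of that length over all genes. The windows shown use 1 start per gene, and no test was made against that share. The match lay 229 bases before the start in Klre1, 129 in Klrk1, 76 and 49 in Klrc2 and 87 in Klrc1, and the window of a second annotated start of Klre1 (chr6:129578036-129578285) had none. In the window of a second annotated start of Klrc2 (chr6:129660597-129660846) the matches lay 36 and 9 bases before that start. TTCNNNGAA, the spaced repeat of STAT sites, was in 7.02% of all windows, and AGGTGT, the core of T-box sites, was in 11.8%, and neither was in a window of the 4 genes. These are matches of letters in 250 bases and not measured binding. The Klrc2 and Klrc3 windows were identical at 239 of 250 bases (95.6%), whereas for every other pair of genes the best ungapped alignment matched at 33.1% to 40% of bases. In the transcripts of the GENCODE M21 annotation, 58.1% of the 50-base windows within the first 300 bases of Klrc2 were shared with Klrc3, and none of Klrc1, Klrd1, Klrk1 or Klre1 were shared with another gene there. The method reads this end of the transcript, so the Klrc2 counts are uncertain where reads matched both genes, and Klrc3 itself had only 5 UMIs in the PBS NK cells and 10 in the NK cells of each other group.

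Across clusters, the family was highest in NK cells and in part of the T cells and close to absent in regulatory T cells. The cluster names are the authors', and the clusters were made from the same cells' genes, so the cluster levels are a description with no test. The NK cells carried NK markers: Tyrobp had a UMI in 98.5% of the 795 NK cells, Ncr1 (the NK receptor NKp46) in 44.3% and Cd3e, a chain of the T cell receptor complex, in 1.1%. Other T cell receptor transcripts were found in more of them, with Trbc2 in 29.1%, Cd3g in 6.67%, Trac in 5.53% and Cd3d in 4.15%. The Treg name matched its markers, with Foxp3 in 63.8% and Il2ra in 92.9% of 127 cells. The name act_CD4T did not describe all of its cells, since Cd4 was found in 51.7% of 172 cells and Cd8a in 28.5%. In naive_CD4T, Cd4 was found in 20.5% of 73 cells and Cd8b1 also in 20.5%. Cycling_T (Mki67 in 73.4% of 349 cells) held Cd3e in 50.7% and Ncr1 in 19.5%.

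Klrd1, the shared chain, reached 956 CPM in NK (95% Poisson interval 913 to 1000, which like all such intervals here covers counting error only), 769 in Cycling_NK, 648 in act_CD4T, 606 in gdT/NKT, 523 in Cycling_T, 427 in naive_CD8T and 290 in naive_CD4T. In Treg it was 26.3 (11.4 to 51.8), and in Cycling_Treg it was 4.98, from 1 UMI in 29 cells. The ranges over mice with at least 5 cells of a cluster overlapped between all neighbors in this order except naive_CD4T (144 to 378) and Treg (0 to 102). These levels pool the 3 treatments, which gave unequal shares of each cluster's cells, and the order was not the same in each treatment. In act_CD4T, Klrd1 was at 331 CPM in PBS, below gdT/NKT (558) and Cycling_T (499) of the same treatment, and at 722 in mono-IL10. In IL10/2-Trikine it was at 871 in 23 act_CD4T cells, but at 465 without mouse 5, whose 5 cells held 31 of the 54 UMIs.

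**Figure D1:**
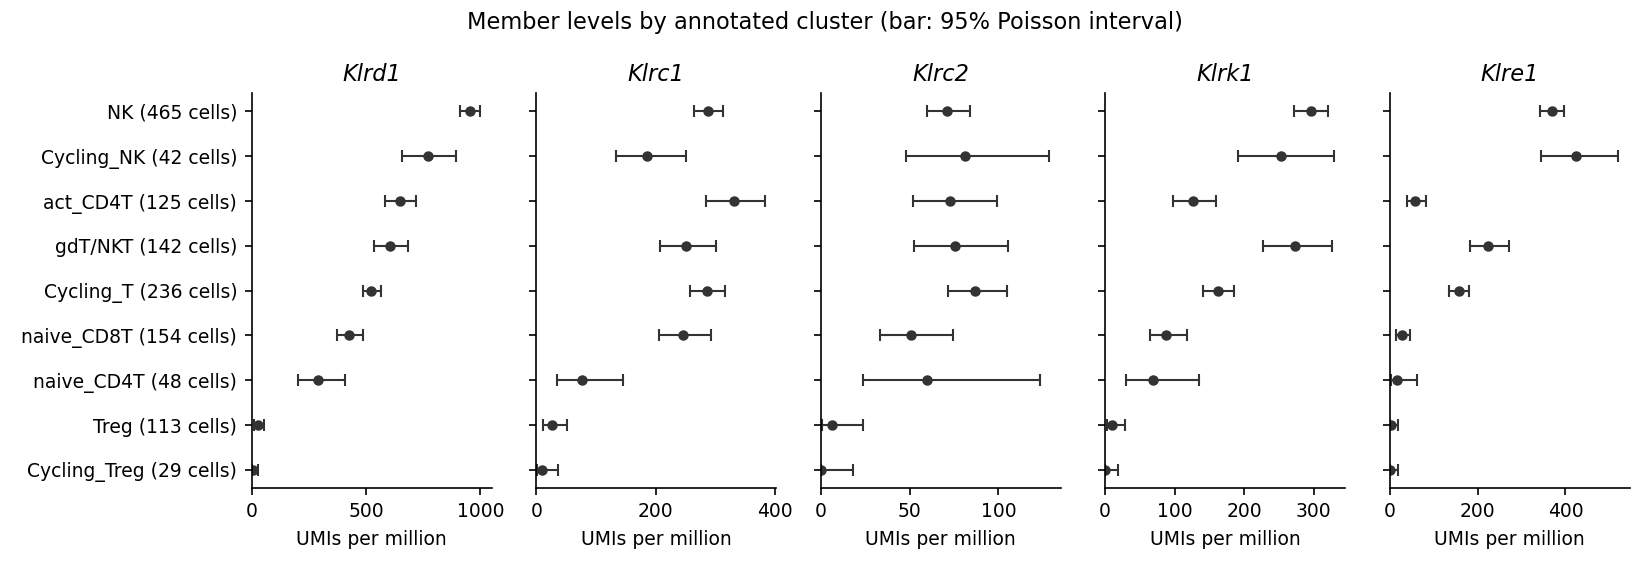
Level in CPM of each gene (horizontal axis, linear, a scale of its own for each panel) in 9 annotated clusters, summed over cells with a mouse from the 3 treatments; points are the summed level and bars its 95% Poisson interval. Klrd1 is at 956 in NK and 26.3 in Treg, Klre1 is at 224 or more in NK, Cycling_NK and gdT/NKT, and Klrc1, pooled over treatments, is at 331 in act_CD4T and 288 in NK.

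Klrc1, the inhibitory partner, was spread over T and NK cells. It stood at 331 CPM in act_CD4T (285 to 383), 288 in NK (264 to 312), 286 in Cycling_T, 251 in gdT/NKT, 246 in naive_CD8T and 185 in Cycling_NK, and the mouse ranges of all these clusters overlapped. By treatment, Klrc1 in act_CD4T was above NK in mono-IL10 (377 and 293 CPM) and below it in PBS (244 and 309). In IL10/2-Trikine the levels were 242 and 262, and act_CD4T was at 297 without mouse 1 and 135 without mouse 2, whose 9 cells held 10 Klrc1 UMIs. It was 76.9 in naive_CD4T and 26.3 in Treg over all treatments. Klrc2, the activating partner, had like levels in many clusters, with 86.8 in Cycling_T, 81.4 in Cycling_NK, 75.4 in gdT/NKT, 72.8 in act_CD4T and 71.1 in NK, and with 50.7 in naive_CD8T and 6.57 in Treg.

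Klrk1 and Klre1 differed more between NK and T cell clusters. Their levels here again pool the 3 treatments, which gave unequal shares of each cluster's cells. Klrk1, the NKG2D chain, was 296 CPM in NK (272 to 321), 273 in gdT/NKT, 253 in Cycling_NK, 162 in Cycling_T, 126 in act_CD4T, 87.8 in naive_CD8T and 9.86 in Treg. Klre1 was 425 in Cycling_NK (344 to 520), 369 in NK (342 to 397), 224 in gdT/NKT and 157 in Cycling_T. It was only 58.3 in act_CD4T, 27.3 in naive_CD8T, 17.1 in naive_CD4T and 3.29 in Treg. The mouse ranges of Klre1 in NK (256 to 547) and naive_CD8T (0 to 93.7) did not overlap, while those of Klrc1 in the same clusters did (174 to 434 and 137 to 423). The 3 clusters not plotted had 6 to 12 cells with a mouse: Klrk1 had 5 UMIs in the 11 Th17/ILCs cells, where the other 4 genes had 0, each of which allows a level of up to 107 CPM.

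Because coreceptor UMIs crossed the cluster names, the T cell clusters other than Cycling_T and gdT/NKT were also divided by coreceptor. Klrd1 was at 535 CPM in the 220 cells with a Cd8a or Cd8b1 UMI and no Cd4 UMI, and at 244 in the 110 cells with a Cd4 UMI and no Cd8 UMI, at similar depth (medians of 3220 and 3292.5 UMIs). At least 1 Klrd1 UMI was found in 56.8% and 27.3% of them. Of the 110 Cd4 cells, 31 were Treg and 15 Cycling_Treg, which held 1 Klrd1 UMI together. Without these clusters Klrd1 was at 543 CPM in 216 Cd8 cells and 442 in 64 Cd4 cells, Klrk1 at 132 and 68.6 and Klre1 at 43.0 and 34.3, while Klrc1 (268 and 271) and Klrc2 (63.3 and 72.4) were not higher in the Cd8 cells. The cells were pooled over mice and treatments, so these values are a description with no test. Inside act_CD4T the 43 Cd8 cells carried Klrd1 at 875 and the 58 Cd4 cells at 461, while Klrc2 stood at 72.2 and 76.2. All 5 genes had UMIs in both kinds of T cell.

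Free RNA was gauged in barcodes outside the annotation that carried at least 3 of 5 macrophage or tumor epithelial markers and no UMI of the T cell markers, Ncr1 or Klrb1c. Their medians were 3690 to 6861 UMIs in the macrophage barcodes of a library and 9082 to 26833 in the tumor barcodes. At least 1 Klrd1 UMI was found in 3.09 to 6.83% of the macrophage barcodes of a library and 0.65 to 1.79% of the tumor barcodes, and the other 4 genes were in 0.684 to 5.78% and 0.212 to 1.73%. Leaving out barcodes with T or NK marker UMIs can make these shares too low. In the macrophage barcodes of PBS, mono-IL10 and IL10/2-Trikine, Klrd1 was at 7.26, 9.63 and 23.9 CPM. Klre1 was at 1.79, 2.00 and 7.96 there, and Klrk1 at 8.89, 6.15 and 7.99. Each cell was also thinned to 1500 UMIs to compare shares at 1 depth. In NK cells (NK and Cycling_NK together, 507 cells, median 3272 UMIs before thinning) 71.2% then had Klrd1, 31.4% Klrc1, 10.7% Klrc2, 33.9% Klrk1 and 41.2% Klre1. In the 142 Treg and Cycling_Treg cells (median 2596.5 UMIs) the shares were 0.704 to 1.41%. The macrophage and tumor barcodes were not thinned, and without thinning the Treg and Cycling_Treg shares were 4.23% for Klrd1, 5.63% for Klrc1, 0.704% for Klrc2, 1.41% for Klrk1 and 0.704% for Klre1. Without thinning, the NK cell shares were 88.0%, 49.7%, 25.0%, 59.6% and 69.4%.

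Over T and NK cells together, Klre1 and Klrd1 were higher in IL10/2-Trikine than in both other groups, and no other member was called. Here and below, UMIs were summed per mouse and tested with edgeR's quasi-likelihood test, with Benjamini-Hochberg adjustment over all genes tested and a threshold of 0.05. Shares of all genes called refer to this adjusted threshold. They are not the shares to set beside a count of members at an unadjusted p. Klre1, the NKG2I gene, was at 122, 221, 168, 142 and 167 CPM in the 5 PBS mice, at 158, 173, 131, 185 and 208 in the mono-IL10 mice and at 304, 334, 370, 340 and 350 in the IL10/2-Trikine mice. All 5 IL10/2-Trikine mice lay above all mice of the other groups, which overlapped each other. The log2 fold change was 1.06 against PBS (SE 0.15, edgeR adjusted p = 5.96e-05) and 0.92 against mono-IL10 (SE 0.13, edgeR adjusted p = 6.67e-05), and it held in each of the 23 alternatives run for either comparison.

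Klrd1, the CD94 gene, was at 362, 626, 487, 385 and 444 CPM in the PBS mice, at 670, 498, 564, 642 and 695 in the mono-IL10 mice and at 828, 779, 966, 858 and 902 in the IL10/2-Trikine mice. The IL10/2-Trikine mice again lay above all others, and 3 of the 5 mono-IL10 mice lay above every PBS mouse. The log2 fold change of IL10/2-Trikine was 0.92 against PBS (SE 0.13, edgeR adjusted p = 6.82e-05) and 0.45 against mono-IL10 (SE 0.13, edgeR adjusted p = 0.0258). The second call was lost in 5 of 23 alternatives, which were the fit with no filter on low counts and the fits without mono-IL10 mouse 2, mono-IL10 mouse 3, IL10/2-Trikine mouse 3 or IL10/2-Trikine mouse 5, with edgeR adjusted p up to 0.0747. For mono-IL10 against PBS the log2 fold change of Klrd1 was 0.48 (SE 0.13, edgeR adjusted p = 0.0729).

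Klrc1, Klrc2 and Klrk1 did not pass this test. Klrc1 was at 245, 380, 184, 159 and 180 CPM in PBS, 250, 240, 268, 280 and 296 in mono-IL10 and 211, 303, 169, 245 and 183 in IL10/2-Trikine, with overlapping groups and a log2 difference from PBS of 0.00 (SE 0.18) for IL10/2-Trikine. Klrk1 ranged from 81.6 to 251 in PBS, 183 to 214 in mono-IL10 and 153 to 255 in IL10/2-Trikine. Klrc2 ranged from 49.1 to 83.6, 48.6 to 73.0 and 72.4 to 88.9. In the comparison of IL10/2-Trikine with PBS, 2 of 5 members were called, both higher, where 4.7% of the 4595 genes tested were called higher and 9.49% in either direction. Against mono-IL10 the same count was 2 of 5, where 3.94% of genes were higher and 8.84% called in all. For mono-IL10 against PBS edgeR called 0 of 5 members (1 at an unadjusted p under 0.05, and 1 with DESeq2, Klrd1 in both cases), where 1.11% of genes were called.

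In such sums, fewer cells of a type and less RNA per cell cannot be told apart, and the share of NK cells differed between the groups. NK and Cycling_NK made up 16.7 to 37.5% of annotated cells in the PBS mice, 25.6 to 37.2% in the mono-IL10 mice and 40.3 to 64.6% in the IL10/2-Trikine mice. The IL10/2-Trikine mice were above all others. The part of this share in the difference of Klre1 and Klrd1 was not tested, and the comparison was therefore repeated within NK cells.

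**Figure D2:**
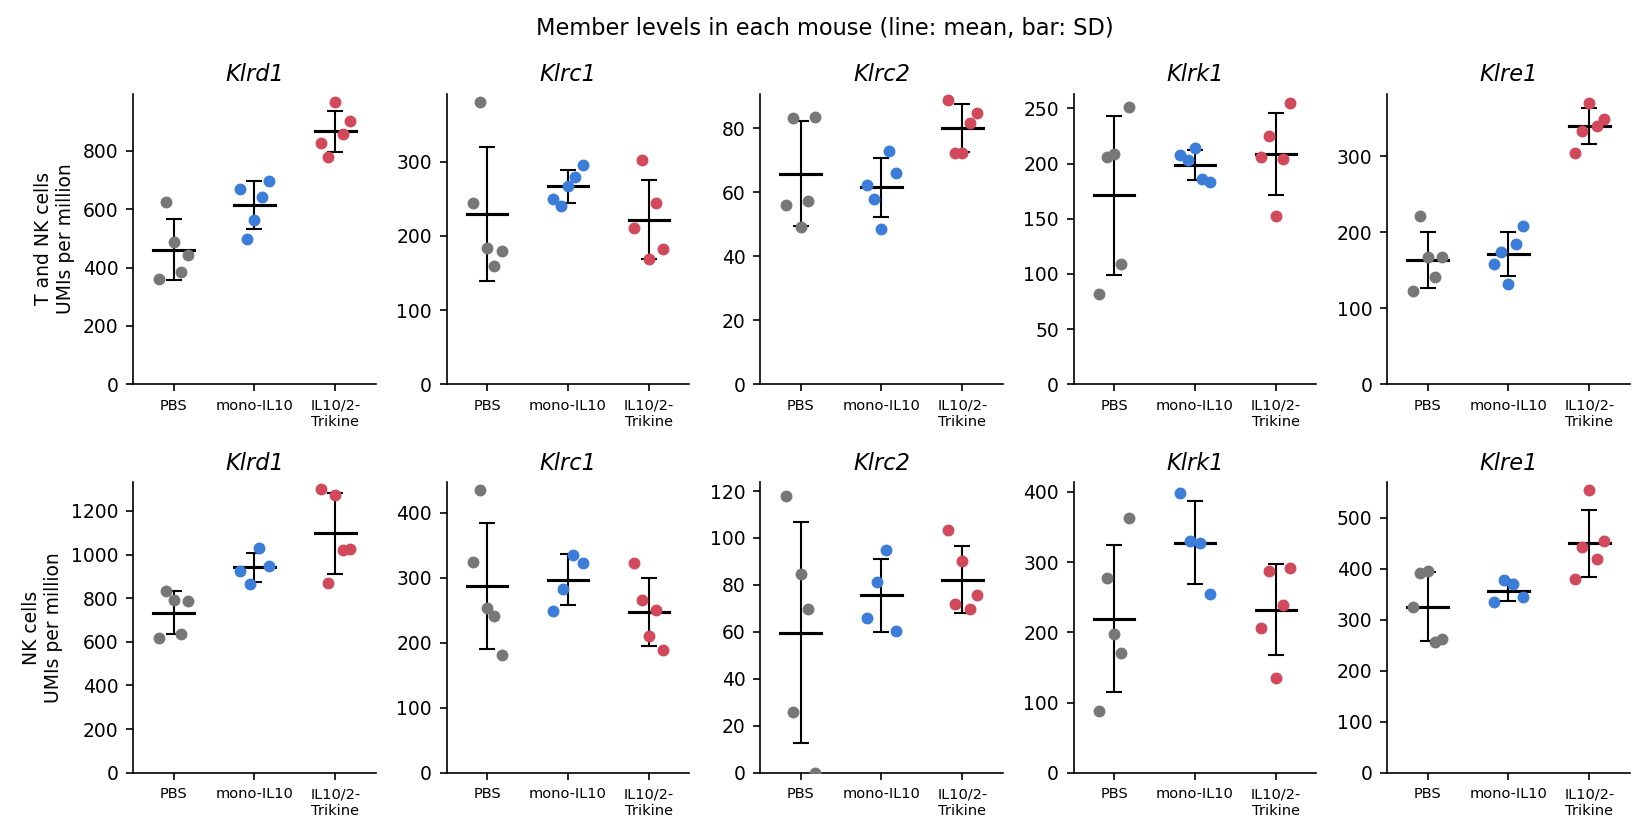
Level in CPM (vertical axis, linear, starting at 0) of each gene in each mouse, for T and NK cells together (top) and NK cells alone (bottom); each point is 1 mouse, the line is the mean and the bar the SD. In the top row Klre1 is at 304 to 370 in the IL10/2-Trikine mice and at most 221 in every other mouse, and in the bottom row Klrd1 is at 619 to 834 in PBS and 868 to 1298 in IL10/2-Trikine.

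Within NK cells, Klrd1 was the 1 member called for IL10/2-Trikine against PBS (2 at an unadjusted p under 0.05). It was at 619, 834, 790, 637 and 785 CPM in the PBS mice, at 926, 865, 1028 and 947 in mono-IL10 mice 1, 2, 4 and 5, and at 1298, 868, 1275, 1018 and 1026 in the IL10/2-Trikine mice. Mono-IL10 mouse 3 had 9 NK cells, under the minimum of 10, and stayed out. All mice of both treated groups lay above all PBS mice. The log2 fold change of IL10/2-Trikine against PBS was 0.57 (SE 0.16, edgeR adjusted p = 0.0379), smaller than the 0.92 over T and NK cells. The direction held in all 24 alternatives, with log2 fold changes from 0.49 to 0.73, but the call was lost in 9 of them (edgeR adjusted p up to 0.114): with at least 20 cells per mouse, in NK cells with no T cell UMI, and without PBS mouse 1, PBS mouse 3, PBS mouse 4, mono-IL10 mouse 1, or IL10/2-Trikine mouse 1, 3 or 5. In the NK cells without a mouse, which entered no test, Klrd1 was at 842 CPM in 75 PBS cells (95% Poisson interval 731 to 964), 1036 in 74 mono-IL10 cells and 931 in 207 IL10/2-Trikine cells (854 to 1013).

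Between mono-IL10 and PBS, Klrd1 had a log2 difference of 0.41 in these cells (SE 0.16, edgeR adjusted p = 0.338), and between the treated groups of 0.15 (SE 0.16, edgeR adjusted p = 0.699). Klre1 was at 324, 391, 395, 256 and 262 CPM in PBS, 336, 377, 370 and 345 in mono-IL10 and 379, 442, 555, 419 and 454 in IL10/2-Trikine. The IL10/2-Trikine mice lay above every mono-IL10 mouse, and 4 of the 5 above every PBS mouse, but the log2 differences of 0.44 (SE 0.16, edgeR adjusted p = 0.114) and 0.26 (SE 0.14, edgeR adjusted p = 0.354) did not pass.

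Klrc1, Klrc2 and Klrk1 again gave no call in NK cells. Klrk1 was at 88.5, 278, 198, 171 and 362 CPM in PBS, 399, 330, 327 and 254 in mono-IL10 and 207, 287, 135, 240 and 292 in IL10/2-Trikine. The PBS mice spread over more than the range of the IL10/2-Trikine mice, and the log2 difference of 0.61 between mono-IL10 and PBS (SE 0.23) had an edgeR adjusted p of 0.312. Between IL10/2-Trikine and mono-IL10 the log2 difference of Klrk1 was -0.48 (SE 0.21, edgeR adjusted p = 0.232). There 3 of the 5 IL10/2-Trikine mice lay below every mono-IL10 mouse. Klrc1 ranged from 181 to 434 in PBS, 249 to 334 in mono-IL10 and 189 to 322 in IL10/2-Trikine. Klrc2 was at 0 in PBS mouse 5, whose 14 NK cells gave 9 Klrc1 UMIs, and otherwise at 26.1 to 118 in PBS, 60.3 to 95 in mono-IL10 and 69.9 to 103 in IL10/2-Trikine. All groups overlapped for these genes. For IL10/2-Trikine against PBS 1 of 5 members was called, where 2.46% of the 2355 genes tested were called higher and 4.42% in either direction. Between IL10/2-Trikine and mono-IL10, edgeR and DESeq2 each called 0 of 5 (1 at an unadjusted p under 0.05), where 2.38% of genes were called, and between mono-IL10 and PBS each called 0 of 5 (2 at an unadjusted p under 0.05), where 0.297% were called.

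As a sum, NK marker genes also differed between the groups in these cells. The summed level of the 7 NK markers (Ncr1, Klrb1c, Eomes, Nkg7, Gzma, Tyrobp and Fcer1g) in NK cells was 6664 to 8796 CPM in the PBS mice, 9142 to 11079 in the 4 mono-IL10 mice tested and 11493 to 17714 in IL10/2-Trikine, without overlap. That of the 5 T cell markers was 122 to 503, 133 to 263 and 130 to 238, with overlap, and that of the 5 macrophage markers was 0 to 201, 56.9 to 119 and 91.9 to 140. Single NK markers did not all follow the order of their sum, which includes Tyrobp. In the NK cluster, unthinned and with cells of no mouse included, Gzma had a UMI in 42.4% of PBS, 53.4% of mono-IL10 and 65.9% of IL10/2-Trikine cells. Ncr1 had one in 37.6%, 53.4% and 41.1%, and Eomes in 28.2%, 39.9% and 25.3%. The part of these markers in the Klrd1 result was not tested.

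Shares of positive cells were compared at 1500 UMIs per cell, by exact two-sided permutation tests over mice adjusted over 15 tests. The share of NK cells with Klrd1 was 70.1% ± 11.6 (SD, n = 5) in PBS, 68.2% ± 4.96 (n = 4) in mono-IL10 and 76.3% ± 12.7 (n = 5) in IL10/2-Trikine. None of the 15 comparisons passed. The smallest p the design allowed was 0.00794, and a lone test at that p could not pass the adjustment over 15 tests. The lowest p was that of Klrc1, at 38.5% ± 9.11 in mono-IL10 and 27.0% ± 5.1 in IL10/2-Trikine (p = 0.0556 by the exact permutation test, 0.635 adjusted). Without thinning, when the median NK cell had 2561 UMIs in IL10/2-Trikine, 5275 in mono-IL10 and 3244 in PBS, 7 of the 15 passed. The share of NK cells with Klrk1 was then 78.5% in mono-IL10, 49.0% in PBS and 43.6% in IL10/2-Trikine, and 4 members were lower in IL10/2-Trikine than in mono-IL10. At equal depth none of these calls was made.

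The balance of the inhibitory and activating CD94 partners did not differ detectably. Klrc1 made up 73.3, 94.3, 75 and 77.5% of the Klrc1 and Klrc2 UMIs of NK cells in PBS mice 1 to 4, 79.0, 77.6, 78.6, 77.9 and 84.3% in the mono-IL10 mice and 75.7, 78.7, 70, 78.1 and 71.4% in the IL10/2-Trikine mice. PBS mouse 5 had fewer than 10 such UMIs and stayed out. The means were 80.0% ± 9.68 (SD, n = 4), 79.5% ± 2.74 (n = 5) and 74.8% ± 3.92 (n = 5). The difference of IL10/2-Trikine from mono-IL10 was -4.69 percentage points (exact two-sided permutation p = 0.0794, adjusted p = 0.238) and that from PBS was -5.26 (exact permutation p = 0.325, adjusted p = 0.488), and -0.49 without PBS mouse 2. This percentage compares mice and is not the ratio of the 2 transcripts, since the genes differ in length and Klrc2 shares sequence with Klrc3.

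A CD94 heterodimer needs Klrd1 together with an NKG2 chain in the same cell. At 1500 UMIs per cell, Klrd1 was found with Klrc1 or Klrc2 in 30, 33.3, 20, 19.4 and 7.14% of the NK cells of the PBS mice, 17.3, 34.2, 34.5 and 28.6% of those of 4 mono-IL10 mice and 40.7, 31.9, 18.5, 25.8 and 24.6% of those of the IL10/2-Trikine mice. The groups overlapped, with means of 22% ± 10.3, 28.7% ± 8.05 and 28.3% ± 8.41 and adjusted p of 0.488 or more (exact two-sided permutation tests). The difference from PBS was 6.35 points for IL10/2-Trikine and 6.69 for mono-IL10, ranged from 2.64 to 9.19 and from 2.99 to 10.5 when 1 mouse was left out, and turned to -2.89 and -3.50 at 2500 UMIs per cell. Over all 507 NK cells, 22.3% held both Klrd1 and Klrc1, equal to the product of the 2 shares (22.3%). None of the 5 genes was found in 7.89% of the cells, 1 in 28.2%, 2 in 36.7%, 3 in 22.3%, 4 in 4.73% and all 5 in 0.197%. At this depth a cell that carries a gene's RNA can be without a UMI of it, so these are shares of detection and not of receptor use.

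In T cells without Cycling_T no member passed the test, with 5 PBS, 5 mono-IL10 and only 3 IL10/2-Trikine mice of at least 10 such cells. The clusters in this sum were unequal between treatments. Counted with cells of no mouse, naive_CD8T held 38 PBS, 160 mono-IL10 and 2 IL10/2-Trikine cells, naive_CD4T 30, 42 and 1, and gdT/NKT 78, 75 and 53. Within gdT/NKT the markers also differed between PBS, mono-IL10 and IL10/2-Trikine. Cd3e had a UMI in 65.4%, 58.7% and 43.4% of the cells, Trac in 51.3%, 45.3% and 17.0% and Ncr1 in 11.5%, 20% and 24.5%. The part of this cluster make-up and of these markers in the values of these T cells was not tested. Klrd1 was at 281, 329, 312, 268 and 190 CPM in PBS and 550, 263, 322, 482 and 536 in mono-IL10, and at 616, 138 and 841 in IL10/2-Trikine mice 2, 1 and 5. IL10/2-Trikine mouse 1 lay below all others and the other 2 above all others. The log2 difference was 0.94 against PBS (SE 0.35, edgeR adjusted p = 0.188), and 0.72 for mono-IL10 against PBS (SE 0.27, edgeR adjusted p = 0.234). Without IL10/2-Trikine mouse 1, which left only mice 2 and 5 in that group, 1 member passed for IL10/2-Trikine against PBS. The share of all genes called in that fit is not given here. Klre1 was at 53.1, 35.3, 59.4, 83.2 and 83.1 in PBS, 79.0, 52.6, 41.5, 56.9 and 80.4 in mono-IL10 and 91.7, 151 and 110 in IL10/2-Trikine mice 1, 2 and 5, which lay above all others tested. IL10/2-Trikine mice 3 and 4, with 7 such cells each, stayed out. Klrd1 was at 401 and 172 in them and Klre1 at 66.8 and 57.3, from 1 Klre1 UMI each. The log2 difference of Klre1 was 0.89 against PBS (SE 0.38, edgeR adjusted p = 0.272).

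Klrc2 did not pass the filter on low counts in these cells, so 4 of 5 members were tested. Klrc1 had a log2 difference of 0.63 between mono-IL10 and PBS (SE 0.24, edgeR adjusted p = 0.233), with 4 of 5 mono-IL10 mice above every PBS mouse, and of -0.71 between IL10/2-Trikine and mono-IL10 (SE 0.34, edgeR adjusted p = 0.247). Klrk1 was at 37.9 to 200 in PBS, 92.0 to 187 in mono-IL10 and 91.7 to 183 in IL10/2-Trikine. In each of the 3 comparisons edgeR and DESeq2 called 0 of 4 members and 2 had an unadjusted p under 0.05, where 1.42%, 4.75% and 0.901% of the 2886 genes tested were called for IL10/2-Trikine against PBS, IL10/2-Trikine against mono-IL10 and mono-IL10 against PBS. Without the filter on low counts, Klrd1 passed for IL10/2-Trikine against PBS (edgeR adjusted p = 0.0424). Klrd1 (edgeR adjusted p = 0.000755) and Klrc1 (0.0494) then passed for mono-IL10 against PBS. The shares of genes given above are those of the fit with the filter. In the mice tested, the summed NK markers in these T cells were at 2869 to 4528 CPM in IL10/2-Trikine, 2517 to 3615 in mono-IL10 and 1329 to 2647 in PBS. The summed T cell markers were at 2002 to 2717, 3299 to 4368 and 2673 to 3207, lower in IL10/2-Trikine than in mono-IL10 without overlap. The summed macrophage markers were at 138 to 550, 62.3 to 188 and 114 to 180, with overlap. The part of these marker sums in the values of these T cells was not tested.

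The share of T cells with a Klre1 UMI at 1500 UMIs per cell was 5.82% ± 2.79 in PBS (SD, n = 5), 9.61% ± 3.55 in mono-IL10 (n = 5) and 14.9% ± 1.81 in IL10/2-Trikine (n = 3). The difference of IL10/2-Trikine from PBS had an exact two-sided permutation p of 0.0179, the smallest that 3 mice against 5 allow, and an adjusted p of 0.268 over 15 tests. The share with Klrd1 was 24.7% ± 4.21, 37.6% ± 11 and 40.8% ± 20.4, with an exact permutation p of 0.0397 for mono-IL10 against PBS (adjusted p = 0.298). The naive_CD4T cells, meant as a background for these shares, had Klrd1 in 29.2% and Klre1 in 0% of 48 cells, but 20 of them carried Cd8 UMIs and no Cd4 UMI.

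Cycling_T was the only other cluster with enough mice for a test, at a minimum of 5 cells per mouse (5 PBS, 4 mono-IL10 and 5 IL10/2-Trikine mice). At the minimum of 10 cells, no cluster other than NK had 3 mice in every group. Klre1 and Klrd1 were higher there in IL10/2-Trikine than in mono-IL10. Klre1 was at 198, 171, 129, 104 and 278 CPM in PBS, 53.3, 60.1, 185 and 127 in mono-IL10 and 425, 294, 188, 239 and 257 in IL10/2-Trikine. Every IL10/2-Trikine mouse lay above every mono-IL10 mouse, and the PBS mice overlapped both groups. The log2 fold change against mono-IL10 was 1.52 (SE 0.32, edgeR adjusted p = 0.00407). Klrd1 was at 428, 643, 542, 261 and 649 in PBS, 529, 323, 364 and 390 in mono-IL10 and 899, 755, 680, 716 and 604 in IL10/2-Trikine, with a log2 fold change of 0.86 against mono-IL10 (SE 0.20, edgeR adjusted p = 0.00892). Without the filter on low counts Klrd1 was not called (log2 difference 0.64, edgeR adjusted p = 0.159).

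The same cluster held unequal shares of cells with NK transcripts. A UMI of Ncr1 or Klrb1c (NK1.1) was present in 0 to 40% of the Cycling_T cells of the PBS mice (median 25%), 5.71 to 14.3% in mono-IL10 (median 9.13%) and 42.9 to 70.6% in IL10/2-Trikine (median 50%). The summed T cell markers went the other way, with 1720 to 3027 CPM in PBS, 3186 to 3726 in the 4 mono-IL10 mice tested and 985 to 1631 in IL10/2-Trikine. In Cycling_T cells with a T cell UMI and without Ncr1 or Klrb1c, neither gene was called, with fewer mice than in the whole cluster. PBS mouse 5 and IL10/2-Trikine mice 1 and 3 had 3 such cells each, under the minimum of 5, and stayed out. Klrd1 had a log2 difference of 0.83 (edgeR adjusted p = 0.321), with 3 members tested. Over the 18 alternatives of Klrd1 in Cycling_T this difference went down to 0.47, with edgeR adjusted p up to 0.844. Klre1 was tested in these cells only without the filter on low counts, at 1.93 (edgeR adjusted p = 0.25). Summed over these cells, Klre1 was at 66.5 CPM in 34 PBS cells (Poisson interval 31.9 to 122), 29.2 in 89 mono-IL10 cells (17.3 to 46.1) and 135 in 37 IL10/2-Trikine cells (77.4 to 220), and these sums have no replicate check.

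**Figure D3:**
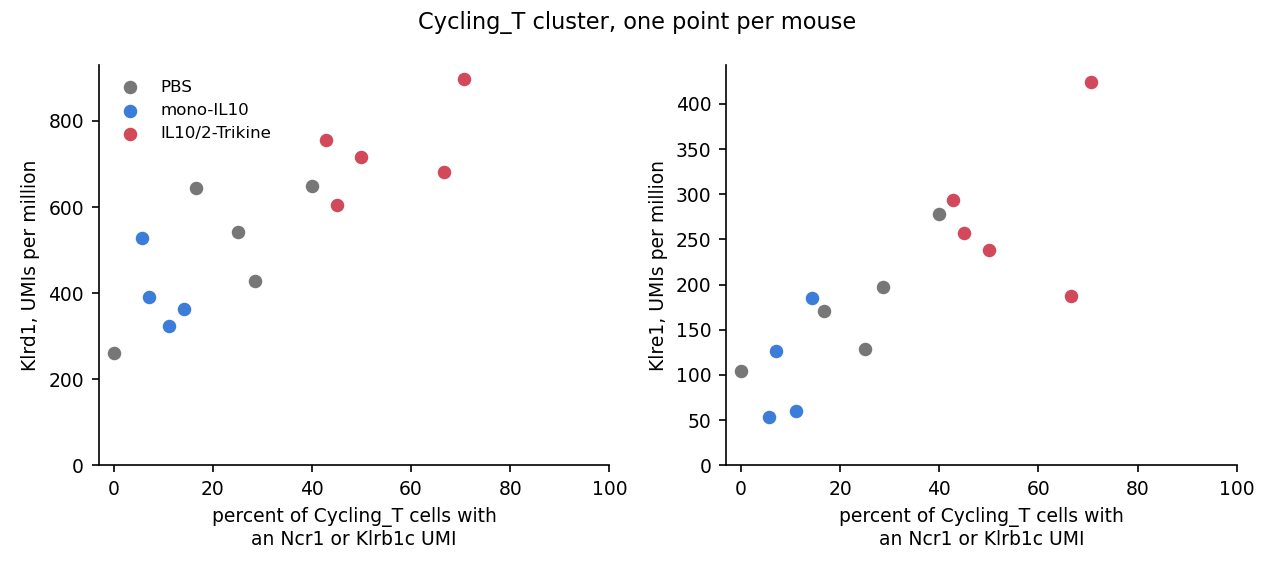
Cycling_T cells of each mouse: percent with a UMI of Ncr1 or Klrb1c (horizontal axis) against CPM (vertical axis, linear) of Klrd1 (left) and Klre1 (right); each point is 1 mouse with at least 5 such cells. The IL10/2-Trikine mice lie at 42.9 to 70.6% and the mono-IL10 mice at 5.71 to 14.3%, so the groups are separated on the horizontal axis as well as in Klre1.

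In Cycling_T, Klrk1 had a log2 difference of 0.81 between IL10/2-Trikine and mono-IL10 (SE 0.34, edgeR adjusted p = 0.147) and Klrc1 of -0.08 (SE 0.29), while Klrc2 did not pass the filter. Thus 2 of 4 members were called higher, where 2.91% of the 1341 genes tested were called higher and 6.34% in either direction. For IL10/2-Trikine against PBS edgeR and DESeq2 called 0 of 4 (2 at an unadjusted p under 0.05), where 3.13% were called, and for mono-IL10 against PBS 0 of 4 (0 at an unadjusted p under 0.05), where 1.27% were called. With Cycling_T added to the other T cells, Klre1 was higher in IL10/2-Trikine than in PBS (log2 fold change 1.24, edgeR adjusted p = 0.00069) and than in mono-IL10 (1.46, edgeR adjusted p = 2.18e-05), and Klrd1 than in PBS (0.89, edgeR adjusted p = 0.00294). That made 2 of 5 members higher than in PBS, where 5.14% of 3189 genes were called higher and 8.97% in all, and 1 of 5 higher than in mono-IL10, where 6.05% were called higher and 12.3% in all.

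**Figure D4:**
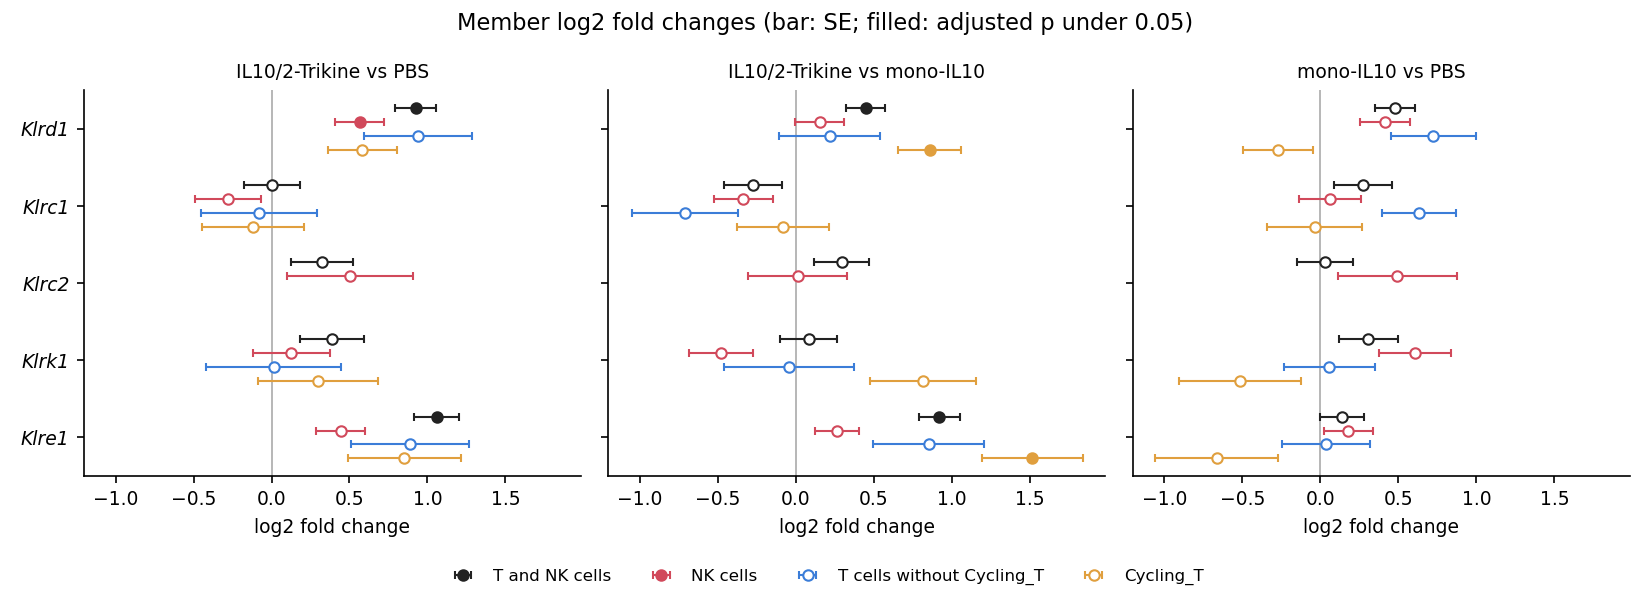
Log2 fold change of each gene (horizontal axis) in the 3 comparisons, for NK cells, Cycling_T, T cells without Cycling_T and the T and NK cells pooled; points are edgeR estimates, bars the SE, and filled points have an adjusted p under 0.05. The filled points are Klrd1 and Klre1 only, from 0.45 for Klrd1 in T and NK cells against mono-IL10 to 1.52 for Klre1 in Cycling_T against mono-IL10.

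The difference between the effect in NK cells and that in T cells was tested in the mice with both populations (5, 4 and 3), with the mouse as a block. No member was called, and 1 had an unadjusted p under 0.05: the effect of mono-IL10 on Klrk1 was higher in NK cells than in T cells by 0.83 on the log2 scale (SE 0.30, edgeR adjusted p = 0.49). The percent of genes called was 0 for IL10/2-Trikine against PBS, 0.203 for IL10/2-Trikine against mono-IL10 and 0.0872 for mono-IL10 against PBS, among 3441 genes. At an unadjusted p under 0.05 there were 217, 248 and 248 of these genes, in the same order. With Cycling_T counted among the T cells, 1 member was called (0.848% of 3892 genes): the difference between IL10/2-Trikine and mono-IL10 in Klre1 was lower in NK cells than in T cells, at -1.14 (SE 0.25, edgeR adjusted p = 0.0167).

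Among the adaptors and gene-complex partners of these receptors, Tyrobp, the DAP12 gene, was higher in NK cells of both treated groups. It was at 1917, 1937, 2130, 2269 and 1872 CPM in the PBS mice, 3779, 2795, 3134 and 2480 in the mono-IL10 mice that entered and 2919, 2790, 3120, 2716 and 3009 in the IL10/2-Trikine mice. The treated groups lay above all PBS mice and overlapped each other. The log2 fold change was 0.52 for IL10/2-Trikine (SE 0.11, edgeR adjusted p = 0.00896; lost with at least 20 cells per mouse, where it was 0.44 and edgeR adjusted p = 0.0744) and 0.64 for mono-IL10 (SE 0.12, edgeR adjusted p = 0.00698; lost in 3 of 24 alternatives). Hcst, the DAP10 gene through which NKG2D signals, had a log2 difference of -0.19 (SE 0.18, edgeR adjusted p = 0.638) between IL10/2-Trikine and PBS, and Fcer1g, the Fc receptor gamma chain, of -0.05 (SE 0.10, edgeR adjusted p = 0.874). Against mono-IL10, Hcst was lower in T cells without Cycling_T (log2 fold change -0.88, SE 0.19, edgeR adjusted p = 0.00745) and in T and NK cells (-0.51, SE 0.12, edgeR adjusted p = 0.00545). Tyrobp was higher in T cells without Cycling_T against mono-IL10 (log2 fold change 1.55, SE 0.29, edgeR adjusted p = 0.00313), which made 2 of 4 partners called there, where 4.75% of all genes were called. Without IL10/2-Trikine mouse 1 neither was called in those cells (edgeR adjusted p = 0.0772 for Hcst and 0.0659 for Tyrobp). The part of the marker levels and of the cluster make-up given above for these T cells was not tested. Over all treatments, Tyrobp had a UMI in 68.0% of gdT/NKT cells and 19.5% of naive_CD8T cells. Of the 7 genes on this list 4 were tested in NK cells, with a median log2 difference of 0.14, and -0.02 over all genes.

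On the ligand side, B2m, the light chain of class I molecules including Qa-1, was lower in NK cells of IL10/2-Trikine mice. It was at 4217, 4500, 4811, 4002 and 4509 CPM in PBS, 4726, 4768, 4379 and 3979 in mono-IL10 and 3700, 3514, 3255, 3375 and 3268 in IL10/2-Trikine, below all other mice. It fell by 0.36 on the log2 scale against PBS (SE 0.08, edgeR adjusted p = 0.0113) and by 0.44 against mono-IL10 (SE 0.09, edgeR adjusted p = 0.00723). Without the filter on low counts the first was not called (edgeR adjusted p = 0.656), and without mono-IL10 mouse 1 the second was not (edgeR adjusted p = 0.0542). H2-T23, the Qa-1 gene, had a log2 difference from PBS of 0.22 (SE 0.23, edgeR adjusted p = 0.680), and of the 6 presentation genes tested edgeR called 1 and DESeq2 2 (4 at an unadjusted p under 0.05), where edgeR called 4.42% of all genes. The signaling lists had no call in NK cells for IL10/2-Trikine against PBS: edgeR and DESeq2 each called 0 of 8 activating genes (1 at an unadjusted p under 0.05), 0 of 2 inhibitory genes (0 at an unadjusted p under 0.05) and 0 of 6 NK transcription factors (1 at an unadjusted p under 0.05), with median log2 differences of 0.27, -0.15 and -0.03.

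Over T and NK cells, where cell shares also count and 4.7% of all genes were called higher and 9.49% in either direction, 3 of 5 partners were higher in IL10/2-Trikine than in PBS: Tyrobp by 1.15 on the log2 scale (edgeR adjusted p = 7.83e-08), Klri2 (a partner chain of NKG2I) by 1.14 (edgeR adjusted p = 0.00864) and Fcer1g by 0.56 (edgeR adjusted p = 0.00265). Of the activating genes, Plcg2 was higher by 1.39 (edgeR adjusted p = 0.00816), 1 of 10. B2m, H2-K1 and H2-D1 were lower, at -0.41, -0.49 and -0.25, which made 3 of 8 presentation genes. Tox, Stat5a and Stat5b were lower, at -0.78, -0.80 and -0.86, which made 3 of 11 transcription factors. The medians of these 4 lists, in the order given, were 0.56, 0.21, 0.02 and 0.09, beside -0.01 over all genes, and edgeR and DESeq2 each called 0 of 5 inhibitory genes (0 at an unadjusted p under 0.05, median 0.08).

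The NKG2D ligands were measured mainly outside lymphocytes, and 5 of the 9 listed were among the features. None of the 5 passed the filter in T or NK cells. Levels of Raet1e, Ulbp1, H60b and H60c follow, and that of the remaining ligand is not given here. In barcodes with tumor epithelial markers, Raet1e was at 22 CPM in IL10/2-Trikine, 24.1 in mono-IL10 and 23.6 in PBS, and Ulbp1 at 9.90, 8.18 and 9.82. H60b and H60c were near 0, and H2-T23 was at 123, 126 and 101. These barcodes were summed over each library, so the values have no replicate check, and the levels of Raet1e and Ulbp1 were close in the 3 libraries.

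The patterns of the 5 genes were compared over 19 sums of 1 cluster and 1 treatment with at least 20 cells each, as Pearson correlations of log2(CPM + 1) with 5231 genes of at least 200 UMIs. The genes most like Klrd1 were Klrk1 (0.96), Rps18 (0.96) and Nop10 (0.94), and those most like Klrk1 were Rps18 (0.97), Klrd1 (0.96) and Nop10 (0.95). For Klre1 they were Nop10 (0.94), Padi2 (0.93) and Cemip2 (0.91), for Klrc1 Rps2 (0.90), Rpl28 (0.89) and Nop10 (0.88), and for Klrc2 Pdlim1 (0.94), Npm1 (0.94) and B4galnt1 (0.94). Between the members the correlation was highest for Klrd1 with Klrk1 (0.96) and lowest for Klrc2 with Klre1 (0.64). The points share 3 libraries and their depth, ribosomal protein genes stand among the closest, and these values are a description only.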

How the data were processed

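Single-cell 5' UMI counts were deposited by the authors as raw filtered matrices from Cell Ranger 9.0.1 on GRCm39, 1 library per treatment, with no normalization, so the counts carry each library's depth. The authors also deposited a table of T and NK cells, with cluster names, hashtag calls and the percent of mitochondrial UMIs, after filtering in Seurat 5.1.0 (at least 1000 genes and at most 10% mitochondrial UMIs). Cells of a further group in that table, which numbered 7858, were not used here. Cells were matched to the matrices by barcode and grouped by treatment and mouse (hashtag). Cells without a single hashtag call entered no comparison.

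UMIs were summed per mouse and population, with at least 10 cells per mouse (5 for Cycling_T), and tested with edgeR 4.0.16 (R 4.3.3; filterByExpr, TMM, glmQLFit and glmQLFTest) over all 3 groups, with Benjamini-Hochberg adjustment over all genes tested. A planned test in each single cluster gave a value in no cluster other than NK at 10 cells per mouse, and Cycling_T was fitted at 5. Shares of cells were compared after thinning each cell to 1500 UMIs by exact two-sided permutation tests over mice (absolute difference of means) (Python 3.11.15, scipy 1.17.1). Alternatives were DESeq2 1.42.0, other scaling, other filters, other cell minimums, thinned cells and leaving out each mouse. The authors' table holds cells with 1 hashtag or none and no hashtag doublets, how doublets were handled is not given in the sources used here, and no further doublet step was applied. Scripts were tested on simulated data. Mice are the replicates, and p-values measure the spread between mice of 1 library per treatment. All T and NK sums per mouse held 124258 to 995020 UMIs. Intervals cover counting error only.

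The 5 genes were named as receptor chains. They, the other gene lists and the tests were all chosen with earlier results of these data known. Beyond the 5 genes, the rule took the 3 genes most correlated with each member and, from each list, up to 4 genes past the threshold in NK cells for IL10/2-Trikine against PBS. Other list genes were named after their values were seen.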

Additional observations from a re-analysis of the deposited data

Results flagged for a closer look

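Each measure of the 5 genes was examined for a mouse far from the others of its group, in 86 groups of 4 or 5 mice, and 2 were found, where chance gives about 1 in 20 groups. In Cycling_T of IL10/2-Trikine, Klrk1 was at 327 CPM in mouse 1 and at 215 in the next highest mouse, and this gap was 0.718 of the group's whole range. In NK cells of mono-IL10, Klrc1 made up 84.3% of the Klrc1 and Klrc2 UMIs in mouse 5 and 79.0% in the next highest mouse, a gap of 0.787 of the range.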

How the results depend on the processing

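The calls of Klre1 and Klrd1 over T and NK cells against PBS were kept in all 23 alternatives, with log2 fold changes of 0.99 to 1.20 and 0.86 to 1.15. Without the filter on low counts, 1 member in place of 2 was called for IL10/2-Trikine against mono-IL10 in T and NK cells and in Cycling_T, 1 in place of 0 for mono-IL10 against PBS in T and NK cells (Klrd1; also 1 with DESeq2) and for IL10/2-Trikine against PBS in T cells, and 2 in place of 0 for mono-IL10 against PBS in T cells. The share of all genes called without this filter is not given here. In NK cells, the count for IL10/2-Trikine against PBS went from 1 to 0 with at least 20 cells per mouse and in cells with no T cell UMI. With Cycling_T among the T cells, the counts were 2 against PBS and 1 against mono-IL10 in place of 0, and 1 for the difference between NK and T cells. In Cycling_T cells with T cell UMIs and no Ncr1 or Klrb1c UMI, 0 members were called with or without the filter; this alternative without the filter, and that without the filter on all Cycling_T cells, were chosen after seeing the data. Without thinning, 1, 4 and 2 shares of NK cells passed in place of 0, and 3 turned direction: Klrc2 and Klre1 between IL10/2-Trikine and mono-IL10 (-12.6 and -10.7 percentage points) and Klrc2 between mono-IL10 and PBS (15.9). Co-detection of Klrd1 with Klrc1 or Klrc2 differed by -2.89 at 2500 UMIs and -5.48 without thinning between IL10/2-Trikine and PBS (6.35 at 1500 UMIs), by 0.603 at 2500 UMIs between IL10/2-Trikine and mono-IL10 (-0.346) and by -3.50 at 2500 UMIs between mono-IL10 and PBS (6.69). The cause of these changes was not tested. Leaving out 1 mouse at a time gave 1 to 2 calls for IL10/2-Trikine against mono-IL10 and 0 to 1 for mono-IL10 against PBS in T and NK cells (1 without PBS mouse 2 or mono-IL10 mouse 2), 0 to 1 for IL10/2-Trikine against PBS in NK cells and in T cells (1 in T cells without IL10/2-Trikine mouse 1), -4.13 to 2.10 points for co-detection between IL10/2-Trikine and mono-IL10, and -2.80 to 4.20 points for the Klrc1 percentage between mono-IL10 and PBS (4.20 without PBS mouse 2). The shares of all genes called in the fits that leave out a mouse are not given here. The call of Klre1 in Cycling_T was lost in 1 of 17 alternatives and that of Klrd1 in 3 of 18. Of 2920 recomputed values of single genes, 171 that passed no test had another sign than the main value. No paired analysis was possible because the labels give no replicate number shared between groups and each hashtag mouse belongs to 1 treatment; a replicate block could therefore not be fitted between treatments. Depth limits Klrc2 most, which did not pass the filter in T cells or Cycling_T.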

Other observations

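NK cells without a single hashtag call entered no comparison, and their levels are given with Poisson intervals for counting error only. Klrd1 was at 842 CPM (731 to 964) in 75 such PBS cells, 1036 (930 to 1149) in 74 mono-IL10 cells and 931 (854 to 1013) in 207 IL10/2-Trikine cells. In NK cells with a mouse, summed over each library, it was at 738, 948 and 1044. Klre1 was at 393, 424 and 369 in the cells without a mouse and at 326, 353 and 445 in those with one. The order of the libraries thus differed between the cells with and without a mouse for both genes.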
